A study of Mus musculus with 16 samples.

Results

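Gata1, Gata2, Zfpm1, Tal1, Lmo2, Klf1, Ldb1 and Nfe2 encode the GATA factors of blood progenitors and the proteins that work beside them in red cell and megakaryocyte development. Every probe that the platform annotation assigns to these 8 genes was taken, which gave 9 of the 25697 probes on the array. The genes themselves were chosen with earlier results of these data known. Counts of these probes beside the share over all probes are therefore a description and not a test. Gata1 had 2 probes and each other gene had 1. All 9 passed the filter on dim probes, as did 12760 probes in all, which carry the symbols of 8833 genes. Their levels were read in 4 groups of 4 arrays: Booreana cells with AML1-ETO9a, Booreana cells with the control vector, wild-type cells with AML1-ETO9a and wild-type cells with the control vector. Booreana mice carry a Myb allele whose product, the transcription factor c-Myb, binds the coactivator p300 poorly, and the wild-type mice were C57Bl6 of the same age, 8 weeks. Marrow was enriched for c-Kit, the receptor for stem cell factor. It was transduced with a retrovirus for green fluorescent protein (GFP) alone (MSCV-I-GFP, the control vector) or for GFP with AML1-ETO9a, a short form of the leukaemia fusion of RUNX1 and ETO, and grown with IL-3, IL-6 and SCF. Cells positive for GFP and c-Kit were sorted 48 hours after transduction, so every group had been infected, cultured and sorted, and AML1-ETO9a was driven by the viral promoter and not by its own. The Myb allele is present in every cell of a Booreana mouse. The labels name 4 Booreana mice, give no number of wild-type mice and do not say that equal replicate numbers mark the same animal. A p-value here therefore sets a difference only against the scatter of arrays, which may not be the scatter of animals.

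GATA1 and GATA2 are zinc finger proteins that bind the sequence GATA. GATA2 maintains stem and early progenitor cells and mast cell precursors, and GATA1 takes over many of its sites as cells become red cells or megakaryocytes. FOG1, the product of Zfpm1, is the cofactor that GATA1 needs for most of these steps, and it recruits the NuRD repressor complex. TAL1, a helix-loop-helix factor, joins GATA factors through the bridging proteins LMO2 and LDB1, and LDB1 can also loop an enhancer to its promoter. KLF1 switches on the adult beta globin gene and other red cell genes. NF-E2, whose large subunit Nfe2 encodes, acts in platelet formation and at the globin enhancers. GATA1 is known to repress Gata2, and the RUNX1 part of AML1-ETO is known to bind sites near many of the genes that this complex controls.

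The promoters of the genes that differed between the genotypes are shown because GATA, MYB and RUNX proteins could each bind such regions. RefSeq (GRCm38.p6) gave 10 promoter entries for 6 of the 8 genes, each from 250 bases before to 50 bases after a transcription start, and the 5 below are written 5′ to 3′ along the gene. Capitals mark matches, on either strand, to a GATA motif (A or T, then GATA, then A or G) or to a MYB motif (AACTG or AACCG).
Gata1 (chrX:7967861-7968160, minus strand): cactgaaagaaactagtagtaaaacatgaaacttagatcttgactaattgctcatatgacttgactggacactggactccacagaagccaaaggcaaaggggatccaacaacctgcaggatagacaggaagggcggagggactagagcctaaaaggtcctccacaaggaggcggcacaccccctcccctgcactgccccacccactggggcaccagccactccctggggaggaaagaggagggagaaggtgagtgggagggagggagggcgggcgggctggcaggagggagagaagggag
Gata2, first entry (chr6:88193641-88193940, plus strand): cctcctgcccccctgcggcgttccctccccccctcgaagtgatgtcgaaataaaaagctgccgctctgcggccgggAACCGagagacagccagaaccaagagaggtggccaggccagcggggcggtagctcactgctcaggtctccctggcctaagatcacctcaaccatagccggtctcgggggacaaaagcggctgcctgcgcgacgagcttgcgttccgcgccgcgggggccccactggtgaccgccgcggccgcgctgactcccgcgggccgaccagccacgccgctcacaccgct
Zfpm1 (chr8:122281891-122282190, plus strand): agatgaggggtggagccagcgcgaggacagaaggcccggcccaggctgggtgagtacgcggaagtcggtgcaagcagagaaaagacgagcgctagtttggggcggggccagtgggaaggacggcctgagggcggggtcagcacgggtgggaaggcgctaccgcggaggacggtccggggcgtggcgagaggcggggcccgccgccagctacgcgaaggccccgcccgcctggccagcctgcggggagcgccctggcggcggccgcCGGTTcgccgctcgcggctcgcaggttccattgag
Tal1, first entry (chr4:115056176-115056475, plus strand): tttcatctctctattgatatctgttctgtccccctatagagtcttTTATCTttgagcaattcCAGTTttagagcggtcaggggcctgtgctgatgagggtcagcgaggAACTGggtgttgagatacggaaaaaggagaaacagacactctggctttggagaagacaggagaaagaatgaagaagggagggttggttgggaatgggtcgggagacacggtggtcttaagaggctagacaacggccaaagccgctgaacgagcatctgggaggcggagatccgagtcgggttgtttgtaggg
Klf1 (chr8:84901732-84902031, plus strand): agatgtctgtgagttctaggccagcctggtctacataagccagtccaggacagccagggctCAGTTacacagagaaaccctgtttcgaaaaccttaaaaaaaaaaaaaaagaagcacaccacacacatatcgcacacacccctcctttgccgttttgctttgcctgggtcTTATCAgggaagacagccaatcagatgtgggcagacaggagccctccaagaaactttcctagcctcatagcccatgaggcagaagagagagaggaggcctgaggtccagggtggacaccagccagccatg
The Gata1 window held no match to either motif. The first Gata2 window and the Zfpm1 window held 1 MYB match each and no GATA match. The first Tal1 window held 1 GATA and 2 MYB matches, and the Klf1 window held 1 of each and, not in capitals, 1 match to the RUNX motif TGTGGT. The second Gata2 entry and the second Tal1 entry, not shown, held 0 matches to any of the 3 motifs. Ldb1, which was not called between the genotypes, had 3 entries, not shown. The first held 0 matches, the second 1 MYB match and the third 2 GATA and 2 MYB matches. Among all 32851 mouse promoter windows of the same length, 29.8% held a GATA match, 56.5% a MYB match and 16.8% a RUNX match. A match is a string of letters and was not tested as a binding site.

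The arrays read 1 colour from biotin-labelled copies of RNA, and levels are given as normalized log2 intensity, on which a difference of 1 is a doubling. Levels of different probes are not on a shared scale and are not set against each other. A probe was called detected on an array at a detection p under 0.05, and between 39.5% and 46.7% of all probes were. The array of Booreana control replicate 2 stood apart, with a mean correlation of 0.845 with the other arrays, where every other array had 0.931 to 0.955. It is kept in every value, and results that turn on it are named. A difference was called at an adjusted p under 0.05 (limma, Benjamini-Hochberg over all 12760 probes), values after ± are standard errors unless SD is written, and intervals are 95%. No named Kit probe was among those tested. Of the early progenitor markers, Cd34, Hoxa9, Meis1 and Slamf1 were tested, and Slamf1 was detected on no array of 3 groups, the exception being Booreana cells with AML1-ETO9a.

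With the control vector, 5 of the 8 genes were higher in Booreana than in wild-type progenitors. Gata2 was 5.12-fold higher, Zfpm1 4.65-fold, Klf1 3.20-fold and Tal1 2.22-fold. Both Gata1 probes were higher too, against wild-type control arrays of which 1 of 4 detected each probe, and no fold is given for them in that comparison. Ldb1, Lmo2 and Nfe2, which encode the bridging proteins and the NF-E2 subunit, were not called. Of the 9 probes, 6 were called higher and 0 lower, where 3.77% of all tested probes were called higher, 2.58% lower and 6.35% in either direction. Both Gata1 probes are among the 6, and neither would have passed the filter on the wild-type arrays alone. The genes were chosen with earlier results known, so these shares describe the set and do not test it. The median difference over the 9 probes was 1.24, and over all tested probes it was 0.01. RNA was taken from a mixture of cells, so more cells of a type and more RNA per cell cannot be told apart.

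**Figure D1:**
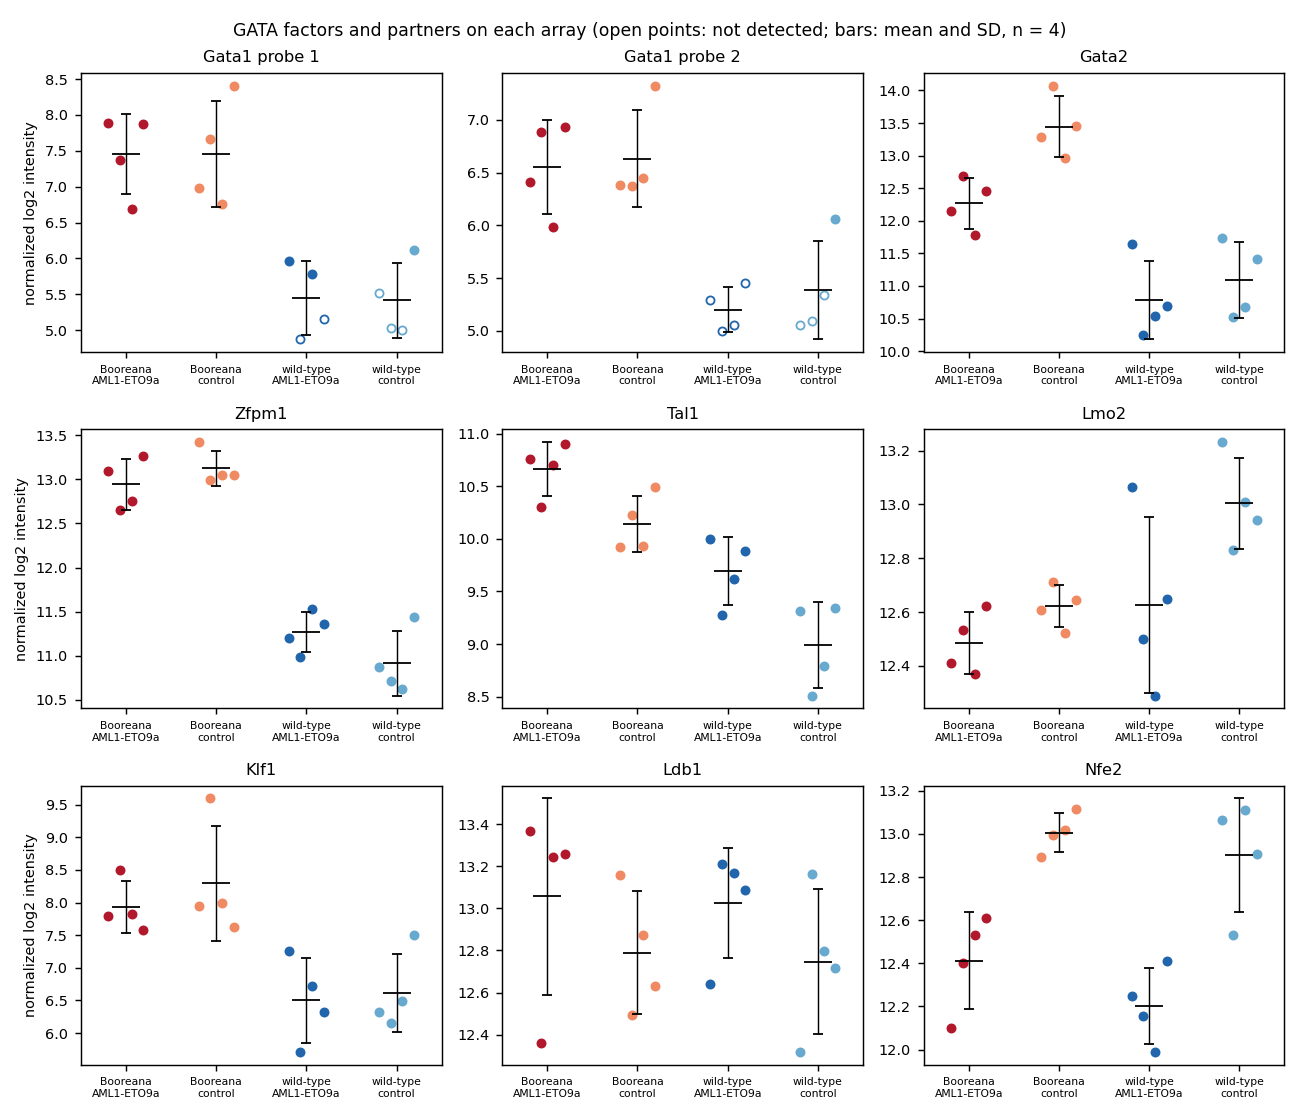
Normalized log2 intensity (y axis, a separate range in each panel) of the 9 probes on each of the 16 arrays, by group. Points are arrays, open where the probe was not detected, and bars show the mean and SD of 4 arrays. The Booreana points of Gata1, Gata2, Zfpm1, Tal1 and Klf1 lie above the wild-type points of the same vector, and those of Ldb1 and Nfe2 overlap them.

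Gata1 was near the limit of detection in wild-type cells and above it in Booreana cells. The brighter Gata1 probe (ILMN_1237279) read 7.88, 7.38, 6.70 and 7.88 in Booreana cells with AML1-ETO9a, 6.99, 7.66, 6.76 and 8.40 in Booreana control cells, 5.96, 4.87, 5.79 and 5.16 in wild-type cells with AML1-ETO9a, and 5.52, 5.03, 5.01 and 6.12 in wild-type control cells. All 8 Booreana arrays lay above all 8 wild-type arrays. It was detected on 4 and 4 arrays of the Booreana groups, against 2 and 1 of the wild-type groups with AML1-ETO9a and with the control vector, so the wild-type levels rest largely on background. The difference with the control vector was 2.04 ± 0.39 (adjusted p = 0.00349). The second Gata1 probe (ILMN_2935686) read 6.39, 6.37, 6.45 and 7.32 in Booreana control cells, against 5.05, 5.09, 5.34 and 6.06 in wild-type control cells, a difference of 1.24 ± 0.28 (adjusted p = 0.0127). Both probes moved the same way, and the groups did not overlap for either, as was so upward for 6 of the 9 probes and for 6.36% of all tested probes. Both probes are among those 6 and passed the filter only with the help of their Booreana arrays, so that share is no test. Without the replicate 4 arrays, the highest of both control groups, the second probe kept its call whichever of them was left out. It lost the call in the authors' processed table (difference 0.24, adjusted p = 0.0584) and with only the compared groups in the fit (adjusted p = 0.0646).

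Gata2 showed the largest difference among the 8 genes with the control vector, and its lowest levels were in wild-type cells. Its probe (ILMN_2612283) read 12.15, 12.68, 11.78 and 12.46 in Booreana cells with AML1-ETO9a, 13.29, 14.07, 12.96 and 13.45 in Booreana control cells, 11.64, 10.25, 10.54 and 10.69 in wild-type cells with AML1-ETO9a, and 11.73, 10.52, 10.68 and 11.42 in wild-type control cells. The order of the groups was Booreana control, then Booreana with AML1-ETO9a, then the wild-type groups, which overlapped each other. With the control vector the difference was 2.36 ± 0.34 (adjusted p = 0.000407). The highest Booreana reading came from the array that stood apart, and the call held without it.

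Zfpm1, which encodes FOG1, gave the smallest p of the 9 probes in both comparisons of the genotypes. Its probe (ILMN_2445324) read 13.10, 12.65, 12.76 and 13.26 in Booreana cells with AML1-ETO9a, 13.42, 12.99, 13.05 and 13.05 in Booreana control cells, 11.20, 10.99, 11.53 and 11.36 in wild-type cells with AML1-ETO9a, and 10.87, 10.71, 10.62 and 11.44 in wild-type control cells. The lowest Booreana array exceeded the highest wild-type array by more than the range within any group. The difference with the control vector was 2.22 ± 0.21 (adjusted p = 7.79e-06), and 30 of the 12760 probes had a smaller p.

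Of the genes for the proteins that hold the complex together, Tal1 was higher in Booreana cells and Lmo2 and Ldb1 were not called. The Tal1 probe (ILMN_2839788) read 10.75, 10.30, 10.70 and 10.90 in Booreana cells with AML1-ETO9a, 9.92, 10.22, 9.93 and 10.49 in Booreana control cells, 9.99995, 9.28, 9.62 and 9.89 in wild-type cells with AML1-ETO9a, and 9.31, 8.51, 8.80 and 9.34 in wild-type control cells. The group means followed that order, and neighbouring groups overlapped in their single values. With the control vector the difference was 1.15 ± 0.23 (adjusted p = 0.00529), with no overlap between the genotypes.

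The Lmo2 probe (ILMN_2767605) read 12.61, 12.71, 12.52 and 12.65 in Booreana control cells, against 13.23, 12.83, 13.01 and 12.94 in wild-type control cells. All 4 Booreana control arrays lay below the wild-type ones, as happened downward for 4.75% of all tested probes, and the difference of -0.38 ± 0.17 was not called (adjusted p = 0.264). With AML1-ETO9a, Lmo2 averaged 12.48 ± 0.12 in Booreana cells and 12.63 ± 0.33 in wild-type cells (SD, n = 4 each), and the groups overlapped. Ldb1 (ILMN_2601907) averaged 13.06 ± 0.47 in Booreana cells with AML1-ETO9a, 12.79 ± 0.29 in Booreana control cells, 13.03 ± 0.26 in wild-type cells with AML1-ETO9a and 12.75 ± 0.35 in wild-type control cells (SD, n = 4 each). All 4 groups overlapped. The genotype difference of Ldb1 with the control vector was 0.04, with an interval from -0.49 to 0.57.

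Klf1, the red cell activator, was higher in Booreana control cells, with a wide spread. Its probe (ILMN_2665087) read 7.80, 8.499, 7.83 and 7.59 in Booreana cells with AML1-ETO9a, 7.96, 9.60, 8.00 and 7.63 in Booreana control cells, 7.25, 5.71, 6.72 and 6.33 in wild-type cells with AML1-ETO9a, and 6.33, 6.16, 6.48 and 7.50 in wild-type control cells. The lowest Booreana control reading, 7.63, lay close above the highest wild-type control reading, 7.50. The difference was 1.68 ± 0.43 (adjusted p = 0.0253). Its highest reading came from the array that stood apart, and the call ended without that array or without any of wild-type control replicates 1, 2 and 3, with an adjusted p of up to 0.089 and a difference of at least 1.24. It also ended with no normalization between arrays (adjusted p = 0.0604), in the authors' processed table (0.0721) and with only the compared groups (0.0994). In the authors' processed table the difference was 0.61, so the size of the Klf1 difference depends on the processing. Klf1 was dim in wild-type control cells, with intensities of 233 to 328, though detected on all 4 arrays.

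Nfe2 (ILMN_2881620) read 12.90, 12.99, 13.02 and 13.12 in Booreana control cells, against 13.06, 12.53, 13.11 and 12.91 in wild-type control cells. The genotypes overlapped, and the difference of 0.10, with an interval from -0.26 to 0.47, was not called.

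**Figure D2:**
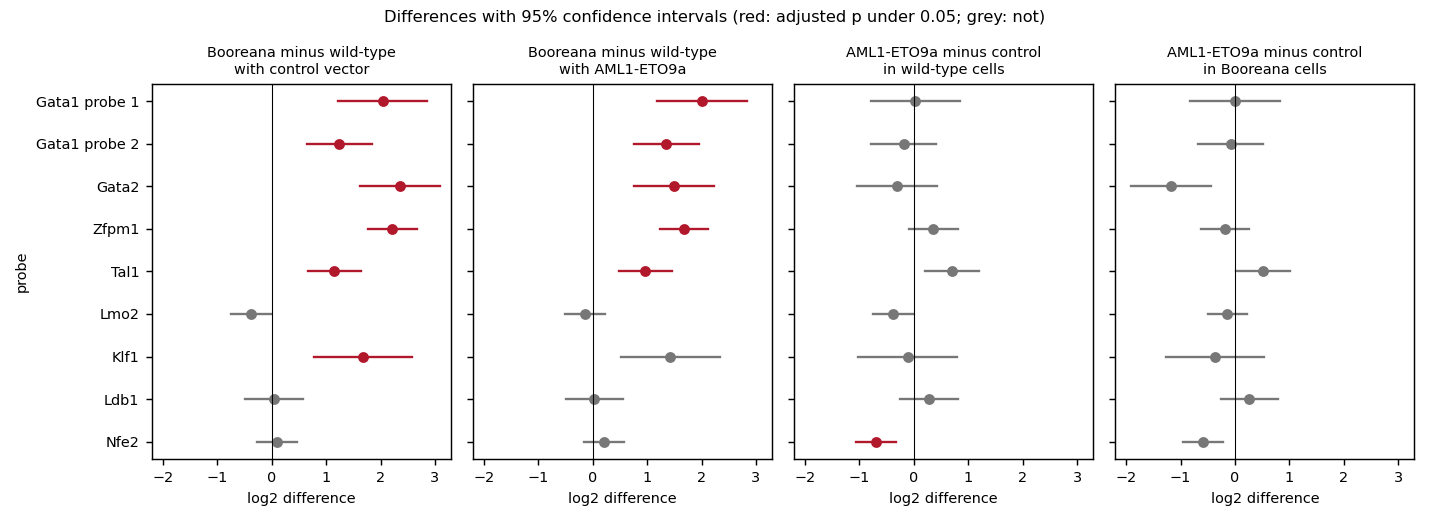
Log2 differences (x axis) of the 9 probes (rows) in 4 comparisons, with 95% confidence intervals, red where the adjusted p was under 0.05 and grey otherwise. In the 2 left panels the Gata1, Gata2, Zfpm1, Tal1 and Klf1 intervals lie above 0. In the 2 right panels only Nfe2 in wild-type cells is red.

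In cells with AML1-ETO9a, 4 of the 8 genes were higher in Booreana than in wild-type progenitors: Gata1, Gata2, Zfpm1 and Tal1. Of the 9 probes, 5 were called higher and 0 lower, where 2.32% of all tested probes were called higher, 1.42% lower and 3.74% in either direction. Both Gata1 probes are among the 5, and these shares too are a description. The median difference was 1.35 over the 9 probes and -0.03 over all tested probes. The 2 comparisons of the genotypes use different arrays.

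Zfpm1 again had the smallest p, with a difference of 1.68 ± 0.21 (adjusted p = 0.000177), or 3.20-fold. The brighter Gata1 probe differed by 2.01 ± 0.39 (adjusted p = 0.0065), with 2 of the 4 wild-type arrays detecting it. The second Gata1 probe read 6.41, 6.89, 5.98 and 6.93 in Booreana cells with AML1-ETO9a, against 5.30, 4.996, 5.06 and 5.46 in wild-type cells with AML1-ETO9a. It was detected on none of those wild-type arrays, so its level there is a bound. It was at least 1.83-fold higher in Booreana cells (adjusted p = 0.0116). In the authors' processed table its difference was 0.25 (adjusted p = 0.0714). For that bound, each undetected array counts at its own reading or at the dimmest detected probe on that array, whichever is brighter.

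Gata2 was 2.80-fold higher with AML1-ETO9a, a difference of 1.49 ± 0.34 (adjusted p = 0.0217). Its call ended without any of 6 arrays, Booreana AML1-ETO9a replicates 1, 2 and 4 and wild-type AML1-ETO9a replicates 2, 3 and 4, with an adjusted p of up to 0.0823 and a difference of at least 1.31. Tal1 differed by 0.97 ± 0.23 (adjusted p = 0.0273), and its call ended without any of 5 arrays, Booreana AML1-ETO9a replicates 1, 3 and 4 and wild-type AML1-ETO9a replicates 2 and 3, with an adjusted p of up to 0.102. With no normalization between arrays, Gata2 (adjusted p = 0.124) and Tal1 (adjusted p = 0.109) were not called. Klf1 differed by 1.43 ± 0.43 and was not called (adjusted p = 0.0907), but it was called with array weights (adjusted p = 0.00553) and with only the compared groups in the fit (adjusted p = 0.0414). All 4 Booreana readings of Klf1 lay above the 4 wild-type readings, as they did for 6 of the 9 probes and for 4.87% of all tested probes in that direction. Both Gata1 probes are among those 6. Without Booreana control replicate 2, which lies outside this pair of groups but enters the shared estimate of spread, the adjusted p of Klf1 was 0.0192.

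**Figure D3:**
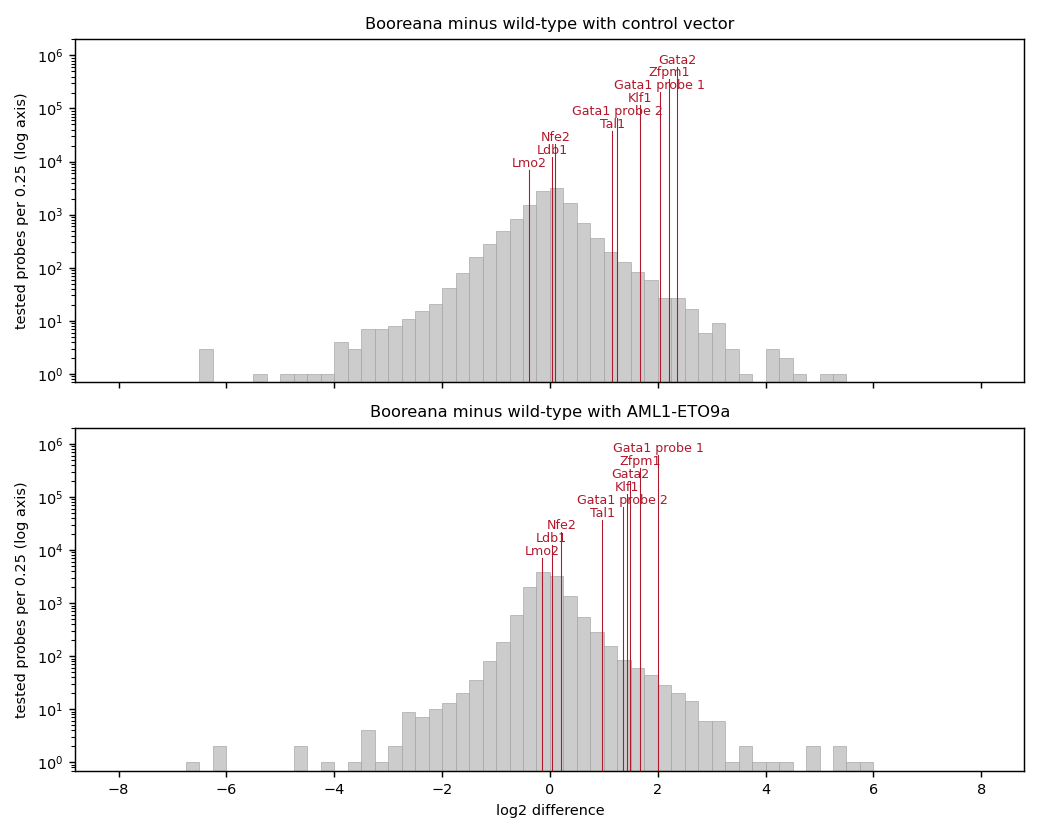
Number of tested probes (y axis, log scale) in steps of 0.25 of log2 difference (x axis), for Booreana minus wild-type with the control vector (top) and with AML1-ETO9a (bottom). Red lines mark the 9 probes. Over both panels Lmo2, Ldb1 and Nfe2 lie between -0.38 (Lmo2, top) and 0.21 (Nfe2, bottom). The other 6 lie to the right, between 0.97 and 2.36.

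In the main fit, which does not pair the arrays, few of these genes were called between AML1-ETO9a and control within a genotype. With the replicate number as a block within each genotype, Nfe2 and Tal1 were called in wild-type cells and Gata2 in Booreana cells. Calls below are from the main fit unless a block is named. In wild-type cells Nfe2 fell and the other 8 probes were not called, where 1.85% of all tested probes were called lower, 2.47% higher and 4.32% in either direction. Nfe2 read 12.25, 12.16, 11.99 and 12.41 in wild-type cells with AML1-ETO9a, against 13.06, 12.53, 13.11 and 12.91 in wild-type control cells, a difference of -0.70 ± 0.17 (adjusted p = 0.0277). The groups did not overlap, as was so downward for 1 of the 9 probes and for 5.21% of all tested probes. The call ended without any of wild-type AML1-ETO9a replicates 1, 2 and 3 or wild-type control replicates 1, 3 and 4, with an adjusted p of up to 0.109 and a difference between -0.82 and -0.63. It also ended with no normalization between arrays (adjusted p = 0.545) and with only the compared groups (adjusted p = 0.064).

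Tal1 differed by 0.71 ± 0.23 between AML1-ETO9a and control in wild-type cells, which was not called (adjusted p = 0.12). With the replicate number as a block within each genotype, which pairs the arrays of the same number, it was called (adjusted p = 0.0286). That block raised the number of probes called over the whole array to 959, against 551 without it. The groups overlapped in their single values, while each numbered pair was higher with AML1-ETO9a. Gata1, Gata2, Zfpm1, Lmo2, Klf1 and Ldb1 had differences from -0.38 to 0.36 in wild-type cells.

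In Booreana cells none of the 9 probes was called between AML1-ETO9a and control by limma, 3 had an unadjusted p under 0.05, and 1.65% of all tested probes were called. Gata2 was lower on every AML1-ETO9a array than on every control array, with a mean of 12.27 ± 0.39 in Booreana cells with AML1-ETO9a and 13.44 ± 0.47 in Booreana control cells (SD, n = 4 each). The difference of -1.17 ± 0.34 missed the threshold (adjusted p = 0.117) and passed with the replicate block within each genotype (adjusted p = 0.00444) and with array weights (adjusted p = 0.0484). That block called 453 probes in all, against 210 without it. Nfe2 read 12.10, 12.40, 12.53 and 12.61 in Booreana cells with AML1-ETO9a, below every Booreana control array, and differed by -0.59 ± 0.17 (adjusted p = 0.116). It passed without background correction (adjusted p = 0.042) and in the authors' processed table (adjusted p = 0.0365). No overlap in the lower direction was seen for 2 of the 9 probes and for 3.61% of all tested probes. Tal1 differed by 0.52 ± 0.23 (adjusted p = 0.37).

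The responses to AML1-ETO9a in the 2 genotypes were also set against each other. None of the 9 probes was called in that difference by limma and 0 had an unadjusted p under 0.05, where 0.0862% of all tested probes were called. Gata2 had the largest value, -0.87 ± 0.49 (adjusted p = 0.814), with an interval from -1.90 to 0.17. The value for Zfpm1 was -0.54 ± 0.30 (adjusted p = 0.81) and that for Nfe2 was 0.11 ± 0.24 (adjusted p = 0.926). Within the numbered pairs, Gata2 changed by -1.14, -1.39, -1.18 and -0.99 in Booreana cells, against -0.09, -0.26, -0.14 and -0.73 in wild-type cells. These changes did not overlap, as was so in that direction for 1 of the 9 probes and for 4.97% of all tested probes. With the replicate block within each genotype, the difference of the Gata2 responses was -0.87 ± 0.22, with an interval from -1.36 to -0.38 and an unadjusted p of 0.00299, and it did not pass after adjustment over all probes (limma, adjusted p = 0.15).

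Genes for other proteins of the LMO2-LDB1 complex moved in part. Of 13 listed genes, 10 were measured, and in Booreana control cells 3 were higher than in wild-type control cells, 0 were lower and 7 were not called. The median of the 10 was -0.04, beside 0.01 over all tested probes. Gfi1b, a repressor needed for red cells and platelets, rose by 2.00 ± 0.33 (adjusted p = 0.00108), Runx1 by 1.08 ± 0.23 (adjusted p = 0.0081) and Cbfa2t3, which encodes the ETO family corepressor ETO2, by 0.90 ± 0.21 (adjusted p = 0.0138). The call of Cbfa2t3 ended without wild-type control replicate 3 (adjusted p = 0.0569).

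With AML1-ETO9a, 2 of the 10 were higher in Booreana cells, Gfi1b by 1.54 ± 0.33 (adjusted p = 0.0133) and Cbfa2t3 by 0.87 ± 0.21 (adjusted p = 0.0273). Gfi1b lost its call when replicate 2 of the wild-type AML1-ETO9a group was left out (adjusted p = 0.0511), and Cbfa2t3 did so without any of 4 arrays. Between AML1-ETO9a and control, Cbfa2t3 fell in both genotypes. It read 9.72, 9.94, 10.05 and 10.48 in Booreana cells with AML1-ETO9a, against 11.70, 11.21, 11.42 and 11.54 in Booreana control cells, a difference of -1.42 ± 0.21 (adjusted p = 0.00165). It read 9.32, 8.99, 8.86 and 9.56 in wild-type cells with AML1-ETO9a, against 10.40, 10.72, 10.33 and 10.80 in wild-type control cells, a difference of -1.38 ± 0.21 (adjusted p = 0.000821). Neither pair of groups overlapped, and both calls held without any single array. A second, dimmer Cbfa2t3 probe was called in Booreana cells (-1.04, adjusted p = 0.0357) and not in wild-type cells (-0.68, adjusted p = 0.152), nor between the genotypes (0.62, adjusted p = 0.168, with the control vector and 0.25, adjusted p = 0.855, with AML1-ETO9a). In wild-type cells AML1-ETO9a went with a rise of Runx1 of 1.33 ± 0.23 (adjusted p = 0.00259), and AML1-ETO9a itself carries part of RUNX1, so whether the probe reads the transgene was not tested.

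Genes for the FOG1 and NF-E2 partners gave no calls. None of the 9 measured NuRD subunits and none of the 4 measured small Maf, Bach and CNC factors was called in any of the 5 comparisons. Those comparisons called from 0.0862% to 6.35% of all tested probes, so no calls among so few genes is not particular to them. None of the 5 other GATA and FOG family genes on the array, Gata3, Gata4, Gata5, Gata6 and Zfpm2, passed the filter on dim probes.

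**Figure D4:**
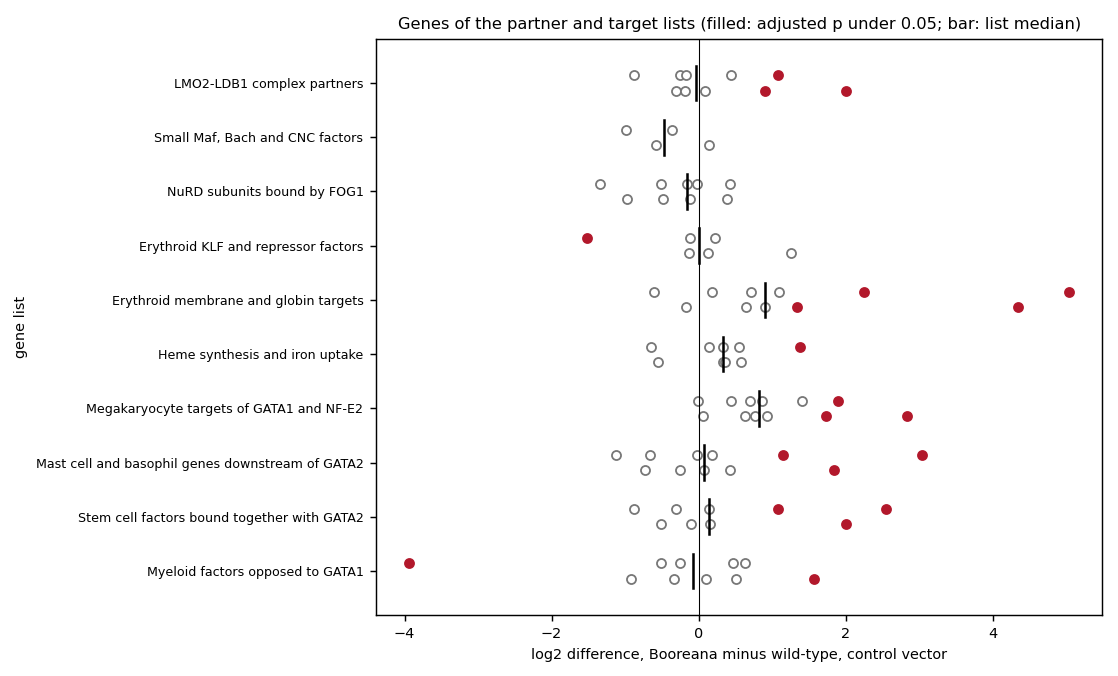
Log2 difference, Booreana minus wild-type with the control vector (x axis), of each measured gene in 10 lists of partners, targets and opposing factors (rows), filled where the adjusted p was under 0.05, with bars at list medians. The erythroid membrane and globin list has its median at 0.90 and the megakaryocyte list at 0.81, while the complex partners have theirs at -0.04.

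Known targets of the red cell complex were higher in Booreana cells in part. Of 30 erythroid membrane and globin genes, 11 were measured. With the control vector 4 were higher in Booreana cells, 0 lower and 7 not called, with a median of 0.90 over the 11. With AML1-ETO9a 4 were higher, 0 lower and 7 not called, with a median of 1.11. The alpha globin gene Hba-a1 read 11.90, 12.93, 12.58 and 13.51 in Booreana cells with AML1-ETO9a, 12.33, 12.78, 12.28 and 13.06 in Booreana control cells, 7.93, 7.07, 8.26 and 6.64 in wild-type cells with AML1-ETO9a, and 7.20, 7.04, 7.11 and 8.95 in wild-type control cells. The genotypes did not overlap with either vector. Hba-a1 differed by 5.04 ± 0.46 in control cells (adjusted p = 5.22e-06) and by 5.26 ± 0.46 in cells with AML1-ETO9a (adjusted p = 5.55e-06). Near-identical alpha globin copies exist in the mouse, and which of them the probe reads was not tested.

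The beta globin gene Hbb-bt was higher in Booreana cells by 4.35 ± 0.45 with the control vector (adjusted p = 1.94e-05) and by 2.67 ± 0.45 with AML1-ETO9a (adjusted p = 0.00225). Icam4, a red cell adhesion protein, was higher by 2.25 ± 0.38 (adjusted p = 0.00138) and by 1.84 ± 0.38 (adjusted p = 0.0105) in the same comparisons. Tspan33 was not detected on any wild-type array and exceeded that bound in both Booreana groups, at least 1.80-fold with the control vector (adjusted p = 0.00867) and at least 1.43-fold with AML1-ETO9a (adjusted p = 0.0388). The call of Tspan33 with AML1-ETO9a ended without any of 11 arrays. AML1-ETO9a itself changed 2 of the 11 in wild-type cells and 1 in Booreana cells. The embryonic globin Hbb-y, detected on no control array, was at least 2.53-fold higher under AML1-ETO9a in Booreana cells (adjusted p = 0.00136). The bound was 2.59-fold in wild-type cells (adjusted p = 0.000261), where Hbb-bt also rose, by 2.26 ± 0.45 (adjusted p = 0.00707). Globin probes can read related globin transcripts, which was not tested.

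Of 9 measured heme synthesis and iron uptake genes, 1 was higher with the control vector in Booreana cells, Alad, an early enzyme of heme synthesis, by 1.37 ± 0.22 (adjusted p = 0.000795). With AML1-ETO9a it was 1 again, the heme pathway transporter Abcb10, by 0.97 ± 0.25 (adjusted p = 0.0395), and that call ended without any of 9 arrays. In wild-type cells AML1-ETO9a lowered the transferrin receptor gene Tfrc by 0.87 (difference -0.87 ± 0.19, adjusted p = 0.0152), a call that ended without wild-type control replicate 4 (adjusted p = 0.0587) and that a second Tfrc probe did not share (-0.86, adjusted p = 0.217). Of 6 measured KLF and repressor genes, Klf3, a repressor that competes with KLF1, was lower in Booreana control cells by -1.52 ± 0.22 (adjusted p = 0.000384). AML1-ETO9a raised Klf3 in Booreana cells by 1.36 ± 0.22 (adjusted p = 0.00335). The remaining call of that list was a fall of Ikzf1 in wild-type cells under AML1-ETO9a (-0.57 ± 0.15, adjusted p = 0.039), which ended without any of 8 arrays.

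Of 10 listed erythroid markers, 6 were on the array and 3 passed the filter (Epor, Hba-a1 and Hbb-bt), and the globins Hba-a1 and Hbb-bt were the 2 called higher in Booreana cells with either vector, while Epor was not called. Their summed normalized intensity ran from 6809 to 14344 in Booreana cells with AML1-ETO9a, from 6524 to 11163 in Booreana control cells, from 520 to 876 in wild-type cells with AML1-ETO9a and from 227 to 799 in wild-type control cells. Slc4a1, Rhag and Alas2, which define maturing red cells, failed the filter. The part of erythroid cells in the differences of Gata1, Zfpm1, Tal1 and Klf1 was not tested.

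Of 12 measured megakaryocyte targets of GATA1 and NF-E2, 3 were higher in Booreana control cells and 0 lower, with a median of 0.81. Itga2b, the platelet integrin CD41, read 10.70, 11.11, 10.32 and 11.41 in Booreana control cells, against 8.68, 7.21, 7.55 and 8.75 in wild-type control cells, a difference of 2.83 ± 0.45 (adjusted p = 0.000851). Pf4, a platelet chemokine, rose by 1.90 ± 0.42 (adjusted p = 0.0105) and Gp5, a platelet glycoprotein, by 1.73 ± 0.30 (adjusted p = 0.00172). With AML1-ETO9a 2 were higher in Booreana cells, Gp5 by 2.38 ± 0.30 (adjusted p = 0.000198) and Itga2b by 2.42 ± 0.45 (adjusted p = 0.00538). A second Itga2b probe was not called with the control vector (1.70, adjusted p = 0.263) or with AML1-ETO9a (2.46, adjusted p = 0.109). With AML1-ETO9a its groups did not overlap. Its SD was 2.27 in Booreana control cells, which lie outside that comparison but enter the shared estimate of spread. In wild-type cells AML1-ETO9a raised Pf4 by 2.26 ± 0.42 (adjusted p = 0.00419) and Ppbp, another platelet chemokine, by 4.32 ± 0.85 (adjusted p = 0.00665). In Booreana cells it raised Treml1 by 2.98 ± 0.61 (adjusted p = 0.018), a call that ended without any of 3 arrays. The Ppbp probe above was not called there. A second Ppbp probe was called in wild-type cells (3.83, adjusted p = 0.00156) and in Booreana cells (2.63, adjusted p = 0.0464). The summed level of 6 megakaryocyte markers ran from 4781 to 10675 in Booreana cells with AML1-ETO9a, from 3692 to 7651 in Booreana control cells, from 3246 to 7569 in wild-type cells with AML1-ETO9a and from 748 to 2121 in wild-type control cells, and its part in these results was not tested.

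**Figure D5:**
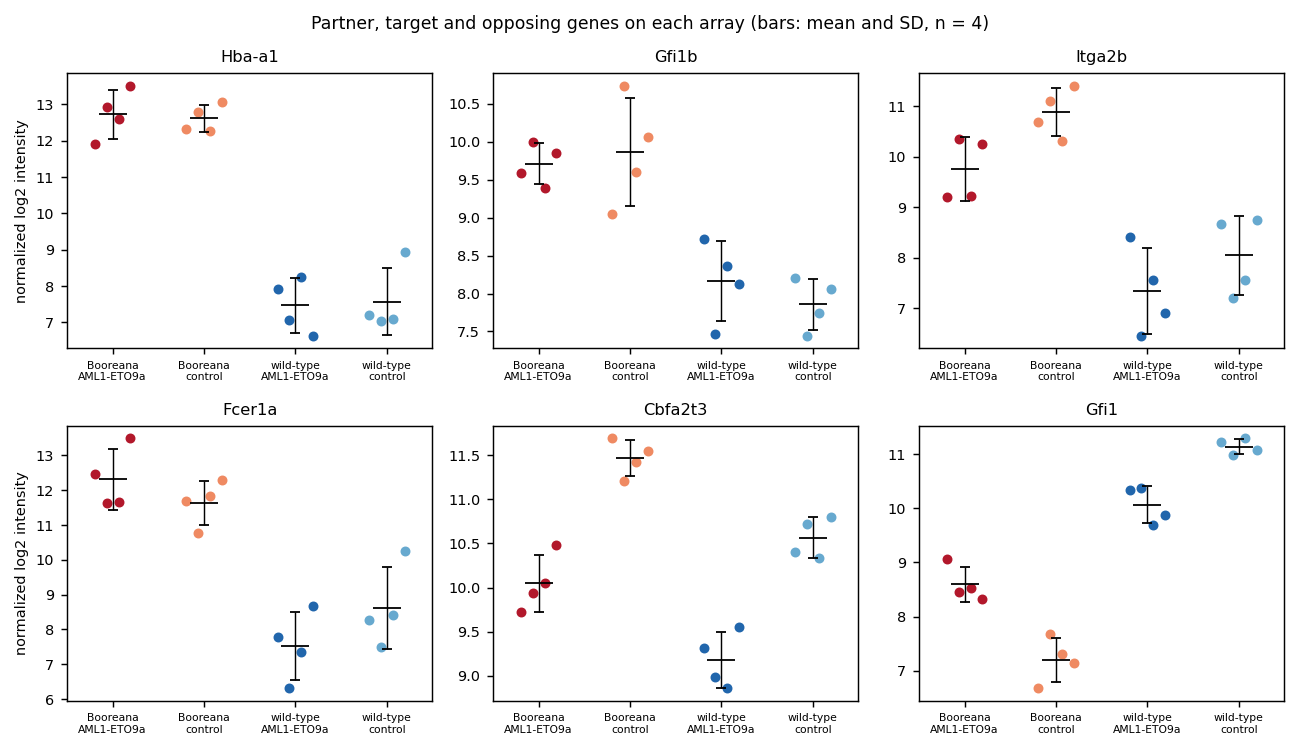
Normalized log2 intensity (y axis, a separate range in each panel) of Hba-a1, Gfi1b, Itga2b, Fcer1a, Cbfa2t3 and Gfi1 on each of the 16 arrays, by group, with bars for the mean and SD of 4 arrays. Hba-a1 separates the genotypes with either vector, Cbfa2t3 is lower with AML1-ETO9a than with the control vector in both genotypes, and Gfi1 is lower in both Booreana groups than in the wild-type groups.

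Mast cell and basophil genes, many of which GATA2 controls, moved both ways. Of 11 measured, 3 were higher in Booreana control cells and 0 lower, with a median of 0.07. Fcer1a, the IgE receptor alpha chain, was higher by 3.03 ± 0.60 with the control vector (adjusted p = 0.00446) and by 4.79 ± 0.60 with AML1-ETO9a (adjusted p = 0.00017). Ms4a2, the beta chain of that receptor, was higher by 1.84 ± 0.27 (adjusted p = 0.000454) and by 2.20 ± 0.27 (adjusted p = 0.000162) in the same comparisons. Hdc, the histamine-forming enzyme, was higher by 1.14 ± 0.23 with the control vector (adjusted p = 0.005). With AML1-ETO9a 3 of the 11 were higher and 0 lower, with a median of 0.79, and the third of them was Tph1, whose call ended without any of 12 arrays.

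AML1-ETO9a lowered the basophil protease Mcpt8 by 2.40 in Booreana cells (difference -2.40 ± 0.36, adjusted p = 0.0019) and by 2.25 in wild-type cells (difference -2.25 ± 0.36, adjusted p = 0.0013). Prss34, another basophil protease, differed by -3.18 ± 0.67 in Booreana cells (adjusted p = 0.0219) and by -3.11 ± 0.67 in wild-type cells (adjusted p = 0.012), and the Booreana call ended without any of 4 arrays. In the same Booreana cells 3 of the 11 genes were higher with AML1-ETO9a, among them the mast cell tryptase Tpsab1, which was detected on no Booreana control array and was at least 6.05-fold higher (adjusted p = 0.00913). In wild-type cells 2 were higher with AML1-ETO9a, Hdc by 1.21 ± 0.23 (adjusted p = 0.00465) and the mast cell protease Cpa3 by 1.92 (adjusted p = 0.0436), whose call ended without any of 11 arrays. Of the other Cpa3 probes, neither was called in wild-type cells (1.35, adjusted p = 0.529, and 1.81, adjusted p = 0.0561). The summed level of 8 mast cell and basophil markers ran from 45893 to 86531 in Booreana cells with AML1-ETO9a, from 27014 to 59283 in Booreana control cells, from 23183 to 42549 in wild-type cells with AML1-ETO9a and from 12928 to 34349 in wild-type control cells. Its part in the Gata2 differences was not tested.

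Among 9 measured stem cell factors that bind together with GATA2, Meis1 was higher in Booreana cells by 2.54 ± 0.26 with the control vector (adjusted p = 2.05e-05) and by 2.41 ± 0.26 with AML1-ETO9a (adjusted p = 5.51e-05). The other calls of that list were Gfi1b and Runx1, given above. Among 10 myeloid factors whose programme opposes that of GATA1, Gfi1, a repressor of the granulocyte line and paralog of Gfi1b, had the largest difference. It read 9.06, 8.46, 8.52 and 8.33 in Booreana cells with AML1-ETO9a, 6.68, 7.67, 7.31 and 7.14 in Booreana control cells, 10.33, 10.37, 9.69 and 9.88 in wild-type cells with AML1-ETO9a, and 11.21, 10.98, 11.30 and 11.07 in wild-type control cells. No pair of groups overlapped. Gfi1 was lower in Booreana cells by -3.94 ± 0.23 with the control vector (adjusted p = 5.21e-08) and by -1.47 ± 0.23 with AML1-ETO9a (adjusted p = 0.00131). The difference between the responses of Gfi1, 2.46 ± 0.33, was called (adjusted p = 0.00522), with a rise of 1.39 ± 0.23 in Booreana cells (adjusted p = 0.00406) and a fall of 1.07 in wild-type cells (difference -1.07 ± 0.23, adjusted p = 0.0126). Leaving out replicate 3 of the wild-type AML1-ETO9a group ended the wild-type call of Gfi1 (adjusted p = 0.0505). Egr1 was the other call of that list between the genotypes with the control vector, higher in Booreana cells by 1.57 ± 0.41 (adjusted p = 0.03), and that call ended without any of 5 arrays. In wild-type cells AML1-ETO9a also lowered Cebpe (-1.34 ± 0.22, adjusted p = 0.00149) and Cebpa (-2.53 ± 0.46, adjusted p = 0.00361), and Cebpa was detected on 1 of the 4 arrays with AML1-ETO9a. A second Cebpe probe was not called (-1.42, adjusted p = 0.381), though its groups did not overlap. Its SD in Booreana control cells, outside that comparison, was 2.00. The summed level of 9 neutrophil lineage markers ran from 98168 to 188050 in Booreana cells with AML1-ETO9a, from 92811 to 200080 in Booreana control cells, from 161703 to 230133 in wild-type cells with AML1-ETO9a and from 383716 to 401202 in wild-type control cells, and its part in the differences of the 8 genes was not tested.

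Other marker lists moved with the genotype as well. Of 4 tested early progenitor markers, 2 were higher in Booreana control cells (Cd34 and Meis1) and 2 in Booreana cells with AML1-ETO9a (Meis1 and Slamf1). Their summed level ran from 3606 to 4304 in Booreana cells with AML1-ETO9a, from 2083 to 3244 in Booreana control cells, from 901 to 1464 in wild-type cells with AML1-ETO9a and from 402 to 673 in wild-type control cells. Of 3 tested dendritic cell markers (Cd74, H2-Aa and H2-Ab1, all of antigen presentation), 3 were higher in Booreana cells with the control vector and 2 with AML1-ETO9a. Their summed level ran from 14172 to 35216 in Booreana cells with AML1-ETO9a, from 17715 to 34335 in Booreana control cells, from 9603 to 12302 in wild-type cells with AML1-ETO9a and from 6529 to 8467 in wild-type control cells. A further H2-Ab1 probe was not called with the control vector (0.37, adjusted p = 0.893) or with AML1-ETO9a (1.77, adjusted p = 0.581). With AML1-ETO9a its groups did not overlap, and its SD in Booreana control cells, outside that comparison, was 3.03. The remaining H2-Ab1 probes were called in both comparisons. A second Cd74 probe was called with the control vector (1.87, adjusted p = 0.000555) and not with AML1-ETO9a (0.89, adjusted p = 0.122). Itgax and Siglech, which define dendritic cells, failed the filter. Between AML1-ETO9a and control in wild-type cells, 3 of 4 eosinophil markers were lower and 3 of 4 monocyte and macrophage markers were higher. The summed eosinophil level ran from 3865 to 9074 with AML1-ETO9a and from 15149 to 33627 with the control vector. The summed monocyte and macrophage level was not higher, at 18388 to 27949 with AML1-ETO9a and 24725 to 27878 with the control vector. The part of these cell types in the differences of the 8 genes was not tested.

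The genes whose pattern was most like each member were found by Pearson's r over the 16 arrays among 8694 genes, as a description. The arrays fall into 4 groups, so a high r can reflect the groups alone, and r of the deviations from the group means is given beside it. Gata1 was most like Slc6a9, a glycine transporter (r = 0.955, within groups 0.786), Prkcq (r = 0.954, within groups 0.805) and P2ry1 (r = 0.952, within groups 0.809). Gata2 was most like Itga2b (r = 0.973), Rnase6 (r = 0.947) and Nrgn (r = 0.945), within groups 0.876, 0.720 and 0.680. Zfpm1 was most like Pdcd1lg2 (r = 0.972), St6gal1 (r = 0.970) and Bex4 (r = 0.965), within groups 0.593, 0.850 and 0.549. Tal1 was most like Col18a1 (r = 0.966), Rgs1 (r = 0.955) and Rftn1 (r = 0.950), within groups 0.807, 0.805 and 0.743. For Klf1 the closest were Crip2 (r = 0.922), Nubp1 (r = 0.911) and Klk8 (r = 0.905), within groups 0.830, 0.841 and 0.734. Without Booreana control replicate 2 the r of Crip2, Nubp1 and Klk8 over the arrays were 0.885, 0.859 and 0.883. Closest to Lmo2 were Frat2 (r = 0.927), Scnn1a (r = 0.878) and Slc39a11 (r = 0.877), within groups 0.873, 0.809 and 0.772. Closest to Ldb1 were Unc45a (r = 0.919), Naa35 (r = 0.869) and St3gal3 (r = 0.866), within groups 0.906, 0.906 and 0.862. Closest to Nfe2 were Rapsn (r = 0.907), Slco4a1 (r = 0.893) and Rnase12 (r = 0.867), within groups 0.470, 0.583 and 0.483.

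Among the members themselves, deviations from the group means also ran together or apart. Gata2 and Lmo2 deviated together (r = 0.790 over the 16 arrays), as did Gata1 and Tal1 (r = 0.702), Gata2 and Klf1 (r = 0.659), Gata1 and Gata2 (r = 0.624) and Gata2 and Tal1 (r = 0.613). Ldb1 ran against Gata2 (r = -0.768) and Lmo2 (r = -0.603). These points share arrays, and same-numbered arrays of a genotype deviate together, so no test was made.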

How the data were processed

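Values came from 16 Illumina mouse Ref-8 arrays with 25697 probes. Per the file headers, the deposited intensities are not normalized, and each stands beside its detection p-value. The software that made both is not stated in these sources. Background had not been subtracted: the lowest intensity was 112. A second deposited table, processed by the authors, looks like log2 values, and lumi is named in the submitters' processing notes with no settings. It served as an alternative only, and each of its 16 columns matched its own array best.

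Intensities were corrected with limma's normexp method from the detection p-values (offset 16), put on the log2 scale and quantile normalized (limma 3.58.1, statmod 1.5.0, R 4.3.3). The filter kept 12760 probes, those detected (p under 0.05) on 4 or more arrays. A limma model with 4 group means gave 5 comparisons, and adjusted p-values are limma's by Benjamini-Hochberg over all 12760 probes. Scripts were tested on simulated data. Gene names came from the platform annotation, which gave 1 symbol for 23978 probes and none for 1719, and the probe with the highest mean stood for a gene of a list.

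The members and lists were chosen with earlier results of these data known. All member probes are named. Of each list, up to 4 genes per comparison with the smallest adjusted p could be named, and for each member the 3 genes with the highest Pearson correlation. Lists are described by counts and medians with no test of the list.

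Replicate numbers come from the labels, which do not say what they mark. Same-numbered AML1-ETO9a and control arrays of a genotype deviated together in all 8 pairs (correlation 0.167 to 0.708). The numbers were used as pairs within a genotype only in the block within each genotype and in the changes of numbered pairs. The main fit has no block, so its p-values and intervals are unpaired. Between genotypes the correlations ran from -0.507 to 0.329 and the numbers were not taken as pairs. Precision is limited by having 4 arrays a group.

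Alternatives were no background correction, an offset of 50, no normalization between arrays, the authors' processed table, no filter, only probes detected on all arrays, array weights, only the compared groups, a replicate block, and each array left out. A replicate block within each genotype was added after the pairing was seen.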

Additional observations from a re-analysis of the deposited data

Results flagged for a closer look

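In 3 of 36 groups of 4 readings (9 probes in 4 groups), the reading at the end of the range stood far from the other 3, and chance alone gives about 1 in 20 such groups. The second Gata1 probe read 7.32 in Booreana control replicate 4, where the other Booreana control arrays read 6.37 to 6.45. Zfpm1 read 13.42 in Booreana control replicate 1, where the others read 12.99 to 13.05. Ldb1 read 12.36 in Booreana AML1-ETO9a replicate 2, where the others read 13.24 to 13.37. The calls of the second Gata1 probe and of Zfpm1 between the genotypes held without each of these arrays.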

How the results depend on the processing

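Recomputing the member values under the alternatives gave 1133 values in all. Of these, 1092 stayed on the same side of the threshold, 32 lost a call and 9 gained one, and no called value changed sign. Among values not called in either fit, 49 changed sign. With the control vector, 6 of the 9 probes were called between the genotypes, 5 to 6 with any array left out, 5 with no normalization between arrays, 5 with the replicate block (Klf1 lost, adjusted p = 0.0509) and 4 with the authors' processed table, with only the compared groups or with probes detected on all arrays. With AML1-ETO9a, 5 were called, 3 with no normalization between arrays, 3 with probes detected on all arrays (which leaves 7 member probes) and 3 to 6 with any array left out. Between AML1-ETO9a and control in wild-type cells, 1 was called, 0 with no normalization between arrays or with only the compared groups, 2 with either replicate block and 0 to 1 with any array left out. In Booreana cells 0 were called, and 1 with no background correction, with the authors' processed table, with array weights or with the replicate block within each genotype. In the difference of the responses 0 were called under each alternative.

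Of the list genes, calls also ended with no normalization between arrays for Gfi1b between the genotypes with AML1-ETO9a and for Cebpe, Gfi1, Hdc and Tfrc in wild-type cells. They ended with the authors' processed table for Icam4 between the genotypes with AML1-ETO9a, Tpsab1 in Booreana cells and Hbb-bt in wild-type cells, and with only the compared groups for Gfi1 and Klf3 in Booreana cells.

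Over all tested probes, calls with the control vector between the genotypes numbered 810, and 1289 with array weights and 516 with only the compared groups. With AML1-ETO9a they numbered 477, and 282 with probes detected on all arrays and 739 with array weights. In wild-type cells the 551 calls became 336 with no normalization between arrays, 1125 with array weights, 959 with the replicate block within each genotype and 349 without wild-type control replicate 3. In Booreana cells the 210 became 119 with probes detected on all arrays, 532 with array weights, 63 with only the compared groups, 453 with that block and 138 without Booreana AML1-ETO9a replicate 2. The 11 calls in the difference of responses ran from 3 to 59 over the alternatives. With no normalization between arrays, the share of calls that were higher was 77.3% and not 62.1% between the genotypes with AML1-ETO9a, 68.2% and not 57.2% in wild-type cells, and 86.1% and not 63.8% in Booreana cells. The cause of these changes was not tested, apart from fewer probes or arrays where an alternative removes them. Gata1 in wild-type cells lies near background, which limits the size of its difference.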
